A study of Homo sapiens with 3 samples.

Results

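The KLF, SP and EGR genes encode zinc finger transcription factors, and peaks of anti-FOXM1 chromatin immunoprecipitation (ChIP) at these genes were described gene by gene. The members were the 31 genes KLF1 to KLF18, SP1 to SP9 and EGR1 to EGR4, of 19970 protein-coding genes on chromosomes 1 to 22 and X in the RefSeq table of GRCh38. All 31 matched by symbol. A peak was assigned to a gene when its summit, the highest point of the peak, lay inside the gene or within 5 kb of it. The families were chosen by the summit positions of both peak lists, with their peaks already known. The peak counts and values below are therefore descriptions, no test was made of them, and nothing is read from the shares of all genes printed beside them.

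All 3 samples of the series came from Huh7, an established line of human liver cancer cells, kept without treatment. They were 1 input sample of chromatin without antibody, for which no peak list was available, and 2 ChIP libraries. The ChIP libraries are called replicate 2 and replicate 3 after their titles. Both ChIP libraries used antibody G-5 against FOXM1, a forkhead protein that activates genes of G2 and mitosis. Whether these libraries are separate cultures is not stated in the labels. No library used another antibody or cells without FOXM1, so the specificity of the peaks for FOXM1 was not tested. A peak list holds no expression values, so the cell line could not be checked by its markers. Among hepatocyte factor genes, CEBPA had a highest peak within 5 kb of fold 8.09 in replicate 2 and 5.60 in replicate 3, and HNF4A had no summit in either library.

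KLF and SP proteins share a run of zinc fingers at their carboxy end and bind GC boxes and CACCC boxes, short GC-rich DNA elements of many promoters. EGR proteins bind a related GC-rich site and are products of immediate early genes, which growth signals switch on within minutes through serum response factor and its ETS partners. In liver, KLF15 is known for its part in gluconeogenesis and amino acid breakdown, KLF6 as a tumour suppressor and injury response gene, and SP1 as a general activator of GC-rich promoters.

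Peaks lay at most members. In replicate 2, 23 of 31 members had at least 1 summit inside or within 5 kb (74.2%), beside 33.4% of protein-coding genes. In replicate 3 it was 26 of 31 (83.9%), beside 41.3%. A summit in at least 1 library was found at 27 members (87.1%), beside 46.2%. A summit in each library was found at 22 members (71.0%), beside 28.5% of protein-coding genes and 13.7% of genes of any type. In replicate 3 alone, 4 members had summits (KLF1, KLF11, KLF17 and SP6), and EGR2 had one in replicate 2 alone. KLF8, KLF18, SP4 and EGR4 had none in either list. By family, 13 of 18 KLF genes, 7 of 9 SP genes and 2 of 4 EGR genes had a summit in each library.

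Members often held several peaks. Replicate 2 had 41 summits at 23 members and replicate 3 had 54 at 26 members. At least 2 summits were found at 11 members in replicate 2 (35.5%), beside 11.0% of protein-coding genes, and at 14 members in replicate 3 (45.2%), beside 16.2%. At least 3 summits were found at 2 members in replicate 2, beside 3.49% of protein-coding genes. In replicate 3 it was 8 members (25.8%), beside 6.11%. The genes with most summits were KLF16, with 6 in replicate 2 and 5 in replicate 3, KLF13, with 5 and 3, and SP9, with 2 and 5.

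**Figure D1:**
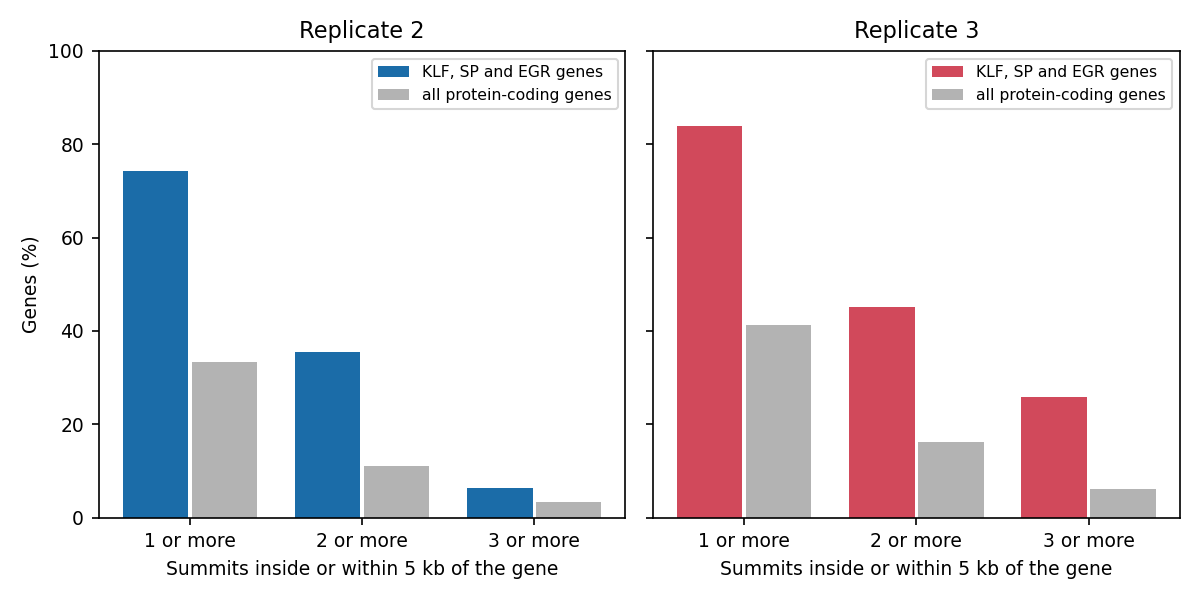
Share of genes (percent, vertical axis, from 0) with at least 1, 2 or 3 peak summits inside or within 5 kb, in replicate 2 (left) and replicate 3 (right). Coloured bars are the 31 KLF, SP and EGR genes and grey bars all 19970 protein-coding genes; with at least 1 summit the members stood at 74.2% and 83.9%, the protein-coding genes at 33.4% and 41.3%.

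The peaks themselves were of ordinary height. Fold enrichment, the authors' linear ratio of ChIP signal to local background at the summit, had a median of 3.76 over the member peaks of replicate 2 and 3.73 over those of replicate 3. Over all peaks of each library the medians were 3.76 and 3.78. Member folds ran from 2.78 to 5.35 in replicate 2 and from 2.33 to 5.84 in replicate 3. Folds of at least 5 were reached by 3 of 41 member summits in replicate 2 (7.32%, against 7.01% of all peaks) and by 2 of 54 in replicate 3 (3.70%, against 7.48%). The 3 in replicate 2 lay at KLF15, KLF13 and KLF6, and both in replicate 3 lay at KLF16.

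**Figure D2:**
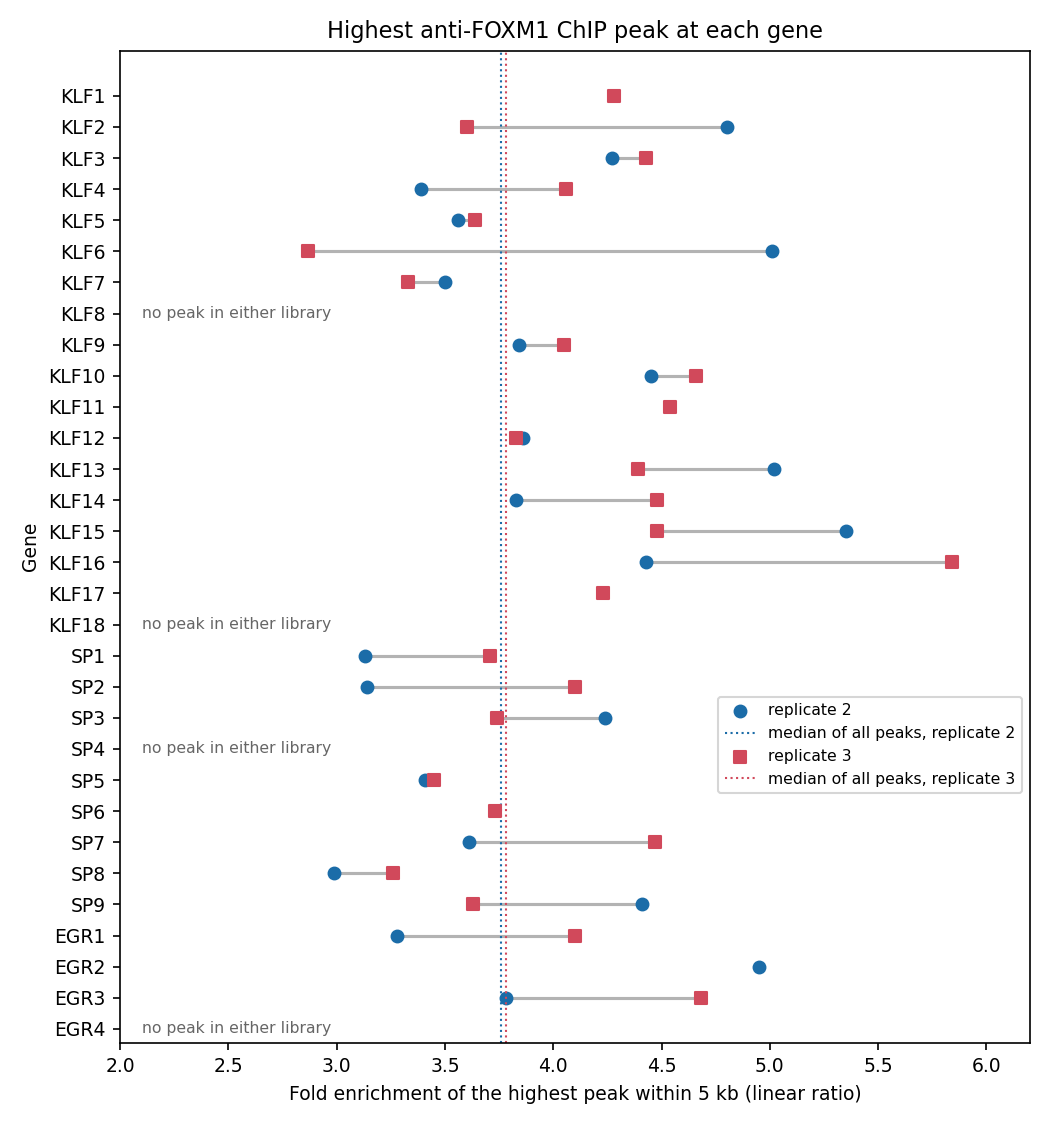
Fold enrichment (linear ratio, horizontal axis, which begins at 2) of the highest peak within 5 kb of each gene, one gene per line. Circles are replicate 2, squares replicate 3, grey lines join the libraries at the 22 genes called in each, and dotted lines are the medians of all peaks, 3.76 and 3.78. KLF15 is highest in replicate 2 at 5.35 and KLF16 in replicate 3 at 5.84.

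Each peak rested on few fragments. From fold and p, the fragment count behind each summit was rebuilt, and its median was 27 at the member summits of replicate 2 (lowest 18, highest 38) and 26 at those of replicate 3 (lowest 16, highest 38). The local background there ran from 2.97 to 8.0 fragments in replicate 2 and from 2.88 to 11.0 in replicate 3, with medians of 5.13 and 5.31. At all 22 members called in each library, the exact Poisson 95% intervals of the fragments at the highest peaks overlapped between libraries. These peaks held 19 to 38 fragments, and even the intervals of 19 (11.4 to 29.7) and 38 (26.9 to 52.2) overlap. No pair could therefore have differed by this measure, and the overlap is no measure of agreement between libraries. These intervals cover counting error only. Folds of the highest peaks were within 1.25 times of each other at 18 of the 22. The highest peaks of the libraries did not always lie at the same place, so different peaks were compared at some genes. At KLF10 the folds of 4.45 and 4.66 came from different shared loci. At KLF13 they came from summits at -908 bp (replicate 2) and 287 bp (replicate 3). Across these 22 genes the folds of the highest peaks correlated weakly, with Pearson's r of 0.196 on the log2 scale and Spearman's rho of 0.255. The points share 2 libraries and a local background taken to come from 1 control, and the values are given as a description.

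**Figure D3:**
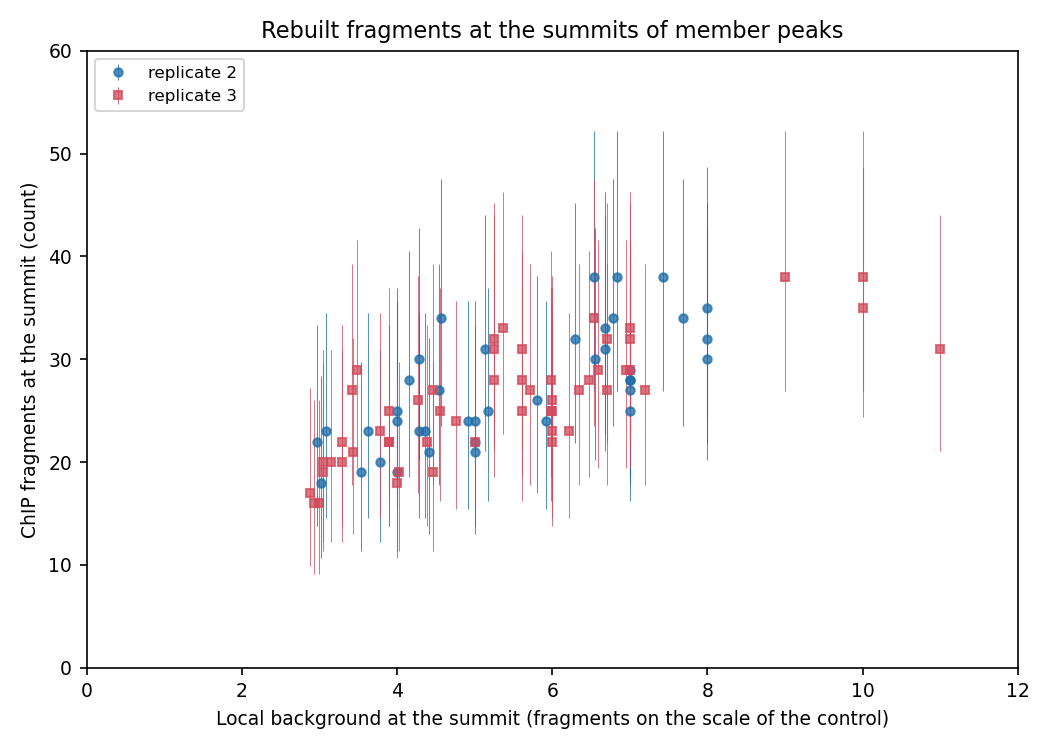
ChIP fragments at each member summit (vertical axis, rebuilt counts) against the local background (horizontal axis, fragments on the scale of the control), with exact Poisson 95% intervals as vertical bars. The 41 summits of replicate 2 (circles) and 54 of replicate 3 (squares) lie between 16 and 38 fragments; the highest background, 11.0, is at an SP3 summit of replicate 3.

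Peaks of the libraries that overlapped by at least 1 bp were merged into shared loci, and each locus was placed midway between its highest summit in replicate 2 and in replicate 3. Members held 29 shared loci at 19 genes (61.3%), beside 25.5% of protein-coding genes with one. At least 2 shared loci were found at 8 members (25.8%), beside 5.68%. The lower fold of the libraries had a median of 3.41 over these 29 loci and 3.56 over all 5357 shared loci. Summits of the libraries lay a median of 142 bp apart at member loci and 92.0 bp apart at all shared loci. Within 100 bp were 11 of 29 (37.9%), against 52.8% of all.

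Positions were read against annotated transcription starts. RefSeq promoter windows of GRCh38, which run from 250 bases before a start to 50 after it, were matched for 25 of 31 members with 41 starts. KLF3, KLF10, SP6, SP7, SP9 and EGR3 had no window, and for them both gene ends stood in. Of the 33 summits of replicate 2 at members with a known start, 21 lay within 1 kb of one, 13 downstream and 8 upstream. Replicate 3 had 28 of 37 within 1 kb, 15 downstream and 13 upstream. The median distance to the nearest start was 562 bp and 541 bp. Only 4 summits of replicate 2 and 6 of replicate 3 fell inside a promoter window itself. A shared locus within 1 kb of a start was found at 16 members (51.6%), beside 20.2% of protein-coding genes.

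**Figure D4:**
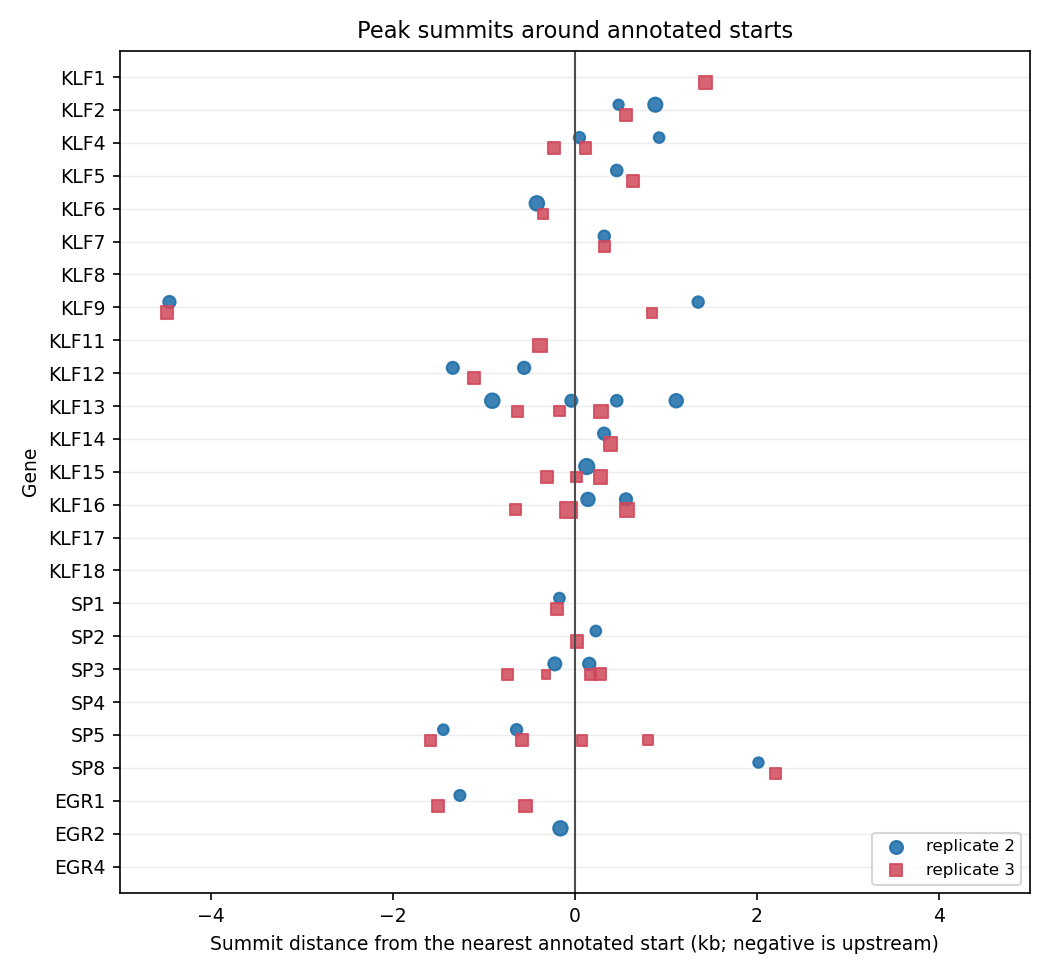
Distance of each peak summit from the nearest annotated start of its gene (kb, horizontal axis, negative upstream), one line for each of the 25 genes with a known start. Circles are replicate 2, squares replicate 3, and a larger mark is a higher fold; 5 summits of replicate 2 and 3 of replicate 3 lie beyond 5 kb of a start and are not drawn. At SP5 the summits of replicate 2 lie upstream of the start, while at KLF2, KLF5, KLF7 and KLF14 the summits of each library lie downstream.

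Shared loci whose midpoint between summits fell inside a promoter window were found at KLF16, SP3, SP1 and KLF13, and these windows are printed. At KLF16 the summit of replicate 2, 144 bp downstream of the start, lay outside the window. So did the highest SP3 summit of replicate 3 in that locus, 168 bp downstream. Peaks of both libraries covered only part of a window, or none of it, as given below. Each is given 5′ to 3′ on the strand of the gene, from RefSeq (GRCh38.p14), with position 0 at the start base. Capitals mark GC boxes, GGGCGG or its complement CCGCCC, the element that SP1 itself is known to bind.
KLF16, chr19:1863530-1863829, minus strand: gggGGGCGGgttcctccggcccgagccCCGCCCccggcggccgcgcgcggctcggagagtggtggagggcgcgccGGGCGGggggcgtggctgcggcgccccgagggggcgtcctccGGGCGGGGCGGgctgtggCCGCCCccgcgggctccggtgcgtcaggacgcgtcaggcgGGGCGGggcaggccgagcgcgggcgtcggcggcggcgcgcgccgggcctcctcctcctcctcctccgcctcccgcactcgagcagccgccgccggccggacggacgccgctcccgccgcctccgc
SP3, chr2:173963831-173964130, minus strand: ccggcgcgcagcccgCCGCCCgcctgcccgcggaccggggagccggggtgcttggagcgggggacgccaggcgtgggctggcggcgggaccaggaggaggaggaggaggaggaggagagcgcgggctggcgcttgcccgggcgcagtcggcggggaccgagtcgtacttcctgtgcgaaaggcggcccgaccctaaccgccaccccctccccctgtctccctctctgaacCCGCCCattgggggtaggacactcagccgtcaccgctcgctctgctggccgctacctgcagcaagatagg
SP1, chr12:53380394-53380693, plus strand: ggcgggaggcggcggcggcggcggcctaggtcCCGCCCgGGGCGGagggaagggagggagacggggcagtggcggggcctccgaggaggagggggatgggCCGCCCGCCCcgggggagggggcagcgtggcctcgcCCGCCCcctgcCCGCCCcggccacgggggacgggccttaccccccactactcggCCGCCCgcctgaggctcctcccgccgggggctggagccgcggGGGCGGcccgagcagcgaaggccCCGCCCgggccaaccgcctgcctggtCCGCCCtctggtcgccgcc
KLF13, chr15:31326585-31326884, plus strand: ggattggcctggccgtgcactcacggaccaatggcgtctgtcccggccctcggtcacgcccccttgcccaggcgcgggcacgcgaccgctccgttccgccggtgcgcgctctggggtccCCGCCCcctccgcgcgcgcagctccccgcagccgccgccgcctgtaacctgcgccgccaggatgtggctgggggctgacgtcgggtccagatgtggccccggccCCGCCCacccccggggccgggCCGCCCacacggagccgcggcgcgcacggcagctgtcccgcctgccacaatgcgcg
The windows of KLF16 and SP1 held 7 and 10 GC boxes, counting overlapping ones, at a GC content of 86.0% and 83.3%. KLF13 held 3 GC boxes (78.3% GC) and SP3 held 2 (74.0% GC). None of the 4 held the forkhead core TAAACA or the cell cycle homology region TTTGAA on either strand.

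The part of each window that the peaks of both libraries covered differed. At SP1 it was the stretch from -250 to -170, 81 bases with 12 of the 58 GC box bases of the window. At KLF13 it was 125 bases from -120 to 4, with 12 of 18 GC box bases. At SP3 only 49 bases from -250 to -202 lay in peaks of both libraries, with 6 of 12 GC box bases. At KLF16 the peak of replicate 3 covered all 300 bases and the peak of replicate 2 covered 0, since it lay further downstream. Thus 0 of its 41 GC box bases lay in peaks of both libraries, and the locus midpoint was 37 bp downstream of the start.

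Over all 41 member windows, GC-rich elements were common. At least 1 GC box (both strands) was in 68.3% of them, beside 56.3% of the 22155 promoter windows of protein-coding genes. The EGR site GCGNGGGCG, which can overlap a GC box, was in 14 of 41 windows (34.1%), at 13 genes, beside 12.2%. The CACCC box CCACCC was in 31.7%, beside 37.7%. TAAACA was in 3 windows (7.32%), beside 9.52%, at KLF9, KLF12 and KLF14. TTTGAA was in 12.2%, beside 12.4%. CCAAT was in 46.3%, beside 34.6%, and the ETS site CCGGAAG in 2.44%, beside 12.8%. The core TGACG of cyclic AMP response elements was in 29.3%, beside 27.9%, the E-box CACGTG in 14.6%, beside 8.34%, and the NRF1 core TGCGCA in 7.32%, beside 9.88%. On the annotated strand alone, the order of members and all windows turned for TAAACA (7.32% beside 5.02%) and for TGACG (9.76% beside 16.8%). Windows of 1 gene can overlap, and a match of letters is no evidence of a bound site.

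CpG content of the windows was high for most members. The ratio of observed to expected CpG, taken from the highest window of each gene, had a median of 0.93 over 25 members and 0.80 over 15812 protein-coding genes. Of genes with a ratio over 0.75, 39.8% had a summit within 5 kb in each library, and 14 of 18 members in that class did. Of genes with a ratio under 0.4 it was 7.54%, and 1 of 3 members, KLF9. Of the other members with a ratio over 0.75, SP4 (0.85) and EGR4 (0.93) had no summit in either library. KLF11 (1.12) and EGR2 (0.99) had one in a single library. Whether CpG content bears on the peaks was not tested. Members were shorter than other genes, with a median length of 18219 bp against 24190 bp. Under 10 kb, 22.7% of protein-coding genes had a summit in each library, and 10 of 14 members did.

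KLF genes known mainly as activators, KLF1, KLF2, KLF4, KLF5, KLF6 and KLF7, had 7 summits in each library. A shared locus was held by 5 of these 6 genes, each within 1 kb of a start, beside 25.5% of protein-coding genes with one. KLF2, a factor of endothelial and T cell quiescence, had summits 480 and 884 bp downstream of its start in replicate 2 (fold 2.94 and 4.80). In replicate 3 a single peak of 906 bp covered both places, with its summit 560 bp downstream and fold 3.60. The locus (chromosome 19, 16325152 to 16326073) was the widest among the members, at 922 bp, and lay inside the gene.

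KLF6, a broadly expressed growth-restraining factor, showed the largest ratio between libraries among the 22 genes. Its single locus (chromosome 10, 3785056 to 3785751) lay outside the gene, with summits 418 bp (replicate 2) and 346 bp (replicate 3) upstream of the start. Fold was 5.01 in replicate 2 and 2.87 in replicate 3, and −log10 q was 7.1 and 2.07. The summits rested on 30 fragments (exact Poisson 95% interval 20.2 to 42.8) over a background of 4.28, and on 22 fragments (13.8 to 33.3) over a background of 6.0. The intervals of the fragment counts overlapped, as at all 22 genes, and the background was lower in the library with the higher fold. Fold is a ratio of signal to background, so the higher count and the lower background both enter the higher fold by definition. Why they differed between libraries was not tested.

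KLF4, one of the reprogramming factors, had summits 50 bp downstream of its start in replicate 2 (fold 3.39) and 119 bp downstream in replicate 3 (fold 3.44). Its highest peak in replicate 3 was another, 228 bp upstream (fold 4.06), without a partner. Replicate 2 had a further summit 926 bp downstream (fold 3.09), also unpartnered. KLF5, a factor of proliferating epithelium, had 1 peak per library at its internal start, with summits 460 and 639 bp downstream of that start (fold 3.56 and 3.64) and 4489 and 4668 bp from the nearer gene end. At KLF7, known from neurons, the summits of the libraries fell on the same base (chromosome 2, 207166533), with fold 3.50 and 3.33. KLF1, the erythroid factor that drives adult globin, had a peak in replicate 3 alone, inside the gene 1434 bp downstream of its start, with fold 4.28 on 20 fragments.

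Of the KLF genes whose proteins recruit the corepressor CtBP, KLF3 and KLF12 held 1 shared locus each and KLF8 held no peak. At KLF3 the locus (chromosome 4, 38663325 to 38664037) lay outside the gene and inside the antisense record KLF3-AS1, with fold 4.27 and 4.43. Replicate 3 had a further summit 162 bp inside KLF3 with fold 4.35. At KLF12, a gene of 619957 bp and the longest member, the peaks lay about an internal start and not at either gene end. The shared summits were at -1342 bp (replicate 2, fold 3.78) and -1113 bp (replicate 3, fold 3.83) from that start. The highest KLF12 peak of replicate 2 was another, at -558 bp (fold 3.86), without a partner. KLF8, on the X chromosome, had its nearest summit 1411931 bp outside the gene in replicate 2 and 1412044 bp in replicate 3.

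The group whose proteins recruit the corepressor Sin3A, KLF9, KLF10, KLF11, KLF13, KLF14 and KLF16, held 11 of the 29 shared loci at 5 of its 6 genes. As many genes of the activator group held one, beside 25.5% of protein-coding genes. The Sin3A group had 16 summits in replicate 2 and 15 in replicate 3. Their median folds were 3.84 and 4.39, beside 3.76 and 3.78 over all peaks of each library. The CtBP group stood close to this, at 3.86 and 4.35 on 3 summits in each library. Medians were 3.50 and 3.60 for the activator group, and 5.35 (1 summit) and 3.98 for KLF15, KLF17 and KLF18. They were 3.54 and 3.50 for SP1 to SP4, 3.09 and 3.40 for SP5 to SP9, and 3.78 and 4.10 for EGR. KLF16 alone gave 6 and 5 of the Sin3A group's summits. It held 4 of the group's shared loci. The one at its start had fold 4.43 and 5.84, the latter the highest fold of any member peak, with −log10 q of 4.55 and 8.79. Another lay 567 bp downstream (fold 3.88 and 4.63), its summits 10 bp apart. The third lay 590 bp inside the end of the gene with the higher coordinate (fold 3.48 and 5.54). The fourth lay beyond the other end of the gene, at the start of the neighbouring gene REXO1, whose start was 52 to 105 bp from the 3 summits there (fold 4.32 and 4.61). Whether these peaks relate to KLF16 or to REXO1 was not tested. Each library also had an unpartnered KLF16 summit, with fold 4.04 in replicate 2 and 3.27 in replicate 3.

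KLF13, a regulator of chemokine expression in T cells, had a row of peaks around its start. In replicate 2 the summits lay at -908, -39, 460 and 1114 bp from the start, with folds of 5.02, 3.76, 3.56 and 4.44, and the fifth lay 65268 bp downstream (fold 3.42). In replicate 3 they lay at -630, -171 and 287 bp, with folds of 3.33, 3.0 and 4.39. The strongest peak of replicate 2, at -908 bp, had no partner in replicate 3. The 2 shared loci lay at -105 bp and 373 bp, and the lower folds there were 3.0 and 3.56.

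KLF9 and KLF10 are induced by glucocorticoid and by TGF-beta, respectively. At KLF9 a locus 4470 bp upstream of the start had fold 3.84 and 4.05, 34 fragments in each library and summits 26 bp apart. It lay inside the divergent noncoding record KLF9-DT. The other KLF9 locus, downstream of the start, was covered by wide peaks whose summits lay 503 bp apart (fold 3.44 and 2.86). KLF10 also held 2 shared loci, and the libraries ranked them differently. The inner one, 1613 bp inside the gene, had fold 4.45 in replicate 2 and 3.34 in replicate 3. The one at the gene end, 30 bp away, had fold 3.20 in replicate 2 and 4.66 in replicate 3. KLF14, an imprinted metabolic regulator of a single coding exon, had 1 locus inside the gene (fold 3.83 and 4.48), with summits at -378 and -450 bp from the start of the noncoding record LOC105375508. KLF11 had a peak in replicate 3 alone, at -381 bp from a start, with fold 4.54 on 20 fragments.

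Among the remaining KLF genes, KLF15 had the highest fold of any member in replicate 2. Its single peak there, 594 bp wide, had its summit 130 bp downstream of the start, with fold 5.35, −log10 q of 8.49 and 34 fragments (exact Poisson 95% interval 23.5 to 47.5). Replicate 3 had 3 separate peaks in the shared locus (chromosome 3, 126357049 to 126357821), with summits at 281, 17 and -304 bp and folds of 4.48, 3.20 and 3.73. The summit at -304 bp lay outside the peak of replicate 2. KLF17, a factor of the early embryo, had a peak in replicate 3 alone, inside the gene record but at -15345 bp from its annotated start (fold 4.23, 31 fragments). The summit also lay inside the record KRT8P47. KLF18, the neighbour of KLF17 2680 bp away, had no peak.

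SP genes lie partly in pairs: SP7 and SP1 were 35382 bp apart on chromosome 12, SP6 and SP2 were 19924 bp apart on chromosome 17, SP3 and SP9 were 369251 bp apart on chromosome 2, and SP8 and SP4 were 641196 bp apart on chromosome 7. SP1 and SP3 are broadly expressed GC-box factors, while SP5 to SP9 are known from development. SP1 had 1 peak per library, at -170 and -197 bp from the later of its starts, with fold 3.13 on 32 fragments and 3.71 on 33. These summits lay on a high background of 8.0 and 7.0 fragments. SP2 had fold 3.14 in replicate 2 and 4.10 in replicate 3, with summits 230 and 23 bp downstream of the start. The SP2 call of replicate 2 had the lowest −log10 q of that library's member peaks, 1.97, against a lowest value of 1.32 in the whole list.

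SP3 has 3 annotated starts, and its peaks lay inside the gene around them. Its loci (chromosome 2, 173963660 to 173964275 and 173964613 to 173965278) had fold 4.24 and 3.94 in replicate 2, each on 38 fragments, the highest count at any member summit and reached also at SP5 and SP9. Replicate 3 split each into 2 peaks, with folds of 3.29 and 2.33 at the first and 3.17 and 3.74 at the second. The peak with fold 2.33 was the weakest of all member peaks, with −log10 q of 1.49, and had the highest background. SP4, by contrast, had no peak, and its nearest summits lay 431200 bp (replicate 2) and 629535 bp (replicate 3) outside the gene.

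SP5, a target of Wnt signalling, had 2 shared loci upstream of its start, at 1517 bp (fold 3.09 and 3.37) and 612 bp (fold 3.41 and 3.45). Their summits lay at 676 and 818 bp, and at -129 and -187 bp, from the start of the noncoding gene LINC01124. Replicate 3 had 2 more summits inside SP5, at 80 and 802 bp, with folds of 3.09 and 2.91. The first of these rested on 38 fragments over a background of 10.0. SP7, the bone factor osterix, had a locus at each flank, outside the gene by 114 bp (fold 3.61 and 4.47) and by 1568 bp (fold 2.78 and 3.80). SP9, a limb and neuron factor, had 1 locus inside the gene (chromosome 2, 174336318 to 174337221; fold 4.41 and 3.40, 38 fragments in each library). The other SP9 locus lay 2011 bp outside it (fold 3.09 and 3.63). Replicate 3 had 3 further SP9 summits without a partner, with folds of 3.39, 2.98 and 3.25.

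SP8 and SP6 were less evenly called. SP8, needed for limb outgrowth, had 1 peak per library inside the gene, 2018 and 2210 bp downstream of its start, with fold 2.99 and 3.26. The peaks were 84 bp apart and did not overlap, so SP8 held no shared locus. SP6, known from tooth development, had 2 peaks in replicate 3 alone, with fold 3.73 on 16 fragments and 3.48 on 19.

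None of the 4 EGR genes held a shared locus, beside 25.5% of protein-coding genes with one. A summit in at least 1 library was found at 3 of them, beside 46.2%. EGR1, the best known immediate early gene of the family, had summits 1264 bp upstream of its start in replicate 2 (fold 3.28, 22 fragments) and 1509 and 541 bp upstream in replicate 3 (fold 3.79 on 16 fragments and 4.10 on 22). The nearest pair of peaks was 127 bp apart. EGR3, a factor of muscle spindles and T cells, had a peak beyond one end of the gene in each library, with fold 3.78 and 4.68, and these were only 8 bp apart. Both summits lay inside the record LOC105379321. A further 2 EGR3 peaks, inside the gene, were in replicate 3 alone (fold 4.07 and 4.32). EGR2, the regulator of Schwann cell myelination, had a peak in replicate 2 alone, at -159 bp from an internal start, with fold 4.95 and −log10 q of 5.04 on 22 fragments over a background of 2.97. EGR4 had none.

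CArG boxes, the site of serum response factor, were in the windows of EGR1 and EGR2 among the EGR genes, in 2 of 5 windows. EGR1 had 2, at -105 and -83, and EGR2 had 1, at -71 from its start at 62816366 on chromosome 10. The other 2 windows of EGR2 and the window of EGR4 had none. KLF7 was the third member with one, at -62. CArG boxes were in 7.32% of the member windows, beside 1.25% of all protein-coding windows. No member summit fell on these EGR1 boxes, since the nearest lay 541 bp upstream of the start.

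With 1 kb in place of 5 kb, 20 members in place of 22 had a summit in each library, beside 25.5% of protein-coding genes in place of 28.5%. Just inside the 5 kb limit were the KLF9 summits 4457 and 4483 bp from the gene (fold 3.84 and 4.05) and the KLF16 summits beside REXO1 at 4021, 3840 and 3864 bp. Just outside were a KLF9 summit of replicate 3 at 5122 bp (fold 3.06), an SP9 summit of replicate 3 at 5276 bp (fold 3.23) and an EGR4 summit of replicate 2 at 6366 bp (fold 4.60). Near EGR2 the closest such summits were 6729 bp away with fold 3.97 in replicate 2, and 6840 bp away with fold 2.92 in replicate 3.

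Genes known to act with these factors were read from a list of 33, chosen with earlier results of these data known. Of these, 23 had a summit within 5 kb in each library and 20 held a shared locus, beside 28.5% and 25.5% of protein-coding genes. Of the cofactors, 9 of 11 were called in each library. They included NAB1 and NAB2, the corepressors of EGR proteins (fold 4.65 and 3.51, and 4.04 and 4.42), CTBP1 (4.65 and 4.66), SIN3A (4.34 and 4.96) and the acetyltransferase gene CREBBP (5.17 and 5.46). SIN3B had no summit in either library, and CTBP2 had summits in replicate 3 alone (highest fold 4.97). Of 12 upstream regulators 7 were called in each library, among them SRF, which encodes serum response factor (3.81 and 4.81), and its partner ELK4 (3.78 and 3.93), while ELK1, MEF2C and MAPK7 had no peak. Other zinc finger genes of GC-rich sites were called in 5 of 8 cases, with ZBTB7A at 4.54 and 5.34 and MAZ at 4.89 and 5.03, and WT1, ZNF148 and ZNF281 had none. Both turnover genes, the ubiquitin ligase genes WWP1 and FBXW7, were called in each library.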

How the data were processed

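Peak lists of 2 anti-FOXM1 ChIP libraries from untreated Huh7 cells were analysed. The submitters' processing notes name build GRCh38 and the tools MACS2 2.2.7.1, BWA and CASAVA 1.4. Their roles, filters and duplicate handling are not given in the sources used here. The authors called peaks per library. The deposited files give each peak a fold enrichment (a linear ratio), −log10 p and −log10 q at the summit, a score (10 times the −log10 q) and the summit offset. No listed peak had −log10 q under 1.32 (replicate 2) or 1.31 (replicate 3). A gene without a peak is one with no listed peak, and the reason was not tested. Replicate 2 had 8271 peaks and replicate 3 had 11502, of which 8230 and 11457 on chromosomes 1 to 22 and X were used. Total reads were not used here.

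Fragment counts were rebuilt from fold and p, taking fold as (scaled count + 1) over (background + 1) and p as a Poisson tail. All peaks (100%) matched within 0.001, at scales of 0.848 and 0.869, and 100% of 951 simulated peaks were recovered exactly. Gene assignment was checked on simulated summits, with 0 differences. The control was taken to be the input, which the labels do not state. The members, the partner genes and the named lists were chosen with earlier results of these data known. Every member is named. Not every gene of the hepatocyte list is reported here. Promoters were printed for up to 6 members with a shared locus midpoint in the window. Python 3.11.15, numpy 2.4.6, pandas 2.3.3, SciPy 1.17.1 and matplotlib 3.10.9 were used.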

Additional observations from a re-analysis of the deposited data

How the results depend on the processing

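Counts depended most on the threshold. With −log10 q of at least 5, 10 members had a summit within 5 kb in replicate 2, 12 in replicate 3 and 5 in each library (KLF9, KLF10, KLF15, SP3 and SP9), beside 7.44% of protein-coding genes. Shared loci were then left at 4 members and at the start of 2, and the median fold of member peaks was 4.47 against 3.73, a subset of higher peaks by construction. At this threshold no share of all genes is given for the counts of a single library or of shared loci. With reciprocal overlap of at least 50%, 9 members held a shared locus and 6 held one at a start, against 19 and 16, and 16.9% of protein-coding genes held a shared locus, against 25.5%. With summits within 100 bp, 13 did and 10 at a start, beside 15.7% of protein-coding genes with a shared locus. Neither overlap rule has a share of all genes beside its count at a start. In the other settings run (−log10 q of at least 3, windows of 1 kb, 500 bp or the gene body, and 5 kb around starts), each count stayed within 1.5 times its value. With a library left out, the need for a peak in both falls away, so the counts are those of the single libraries. They were 23 members without replicate 3 and 26 without replicate 2, beside 33.4% and 41.3% of protein-coding genes. A peak at a start was held by 18 and 20 members, with no share of all genes given. These counts cannot measure agreement between libraries. On the annotated strand alone, matching windows were 6 in place of 13 for CCACCC, 2 in place of 5 for TTTGAA, 9 in place of 19 for CCAAT and 4 in place of 12 for TGACG. Member counts of the other motifs stayed within 1.5 times. Shares of all windows fell too for these 4 motifs. Against all windows, members went from above to below for TGACG (29.3% beside 27.9%, then 9.76% beside 16.8%) and from below to above for TAAACA (7.32% beside 9.52%, then 7.32% beside 5.02%). Over genes of any type, 13.7% had a summit in each library, against 28.5% of protein-coding genes. No paired analysis was possible because the libraries form 1 group and nothing was tested between them. Member summits rested on a median of 27 and 26 fragments, and how depth bears on weaker peaks was not tested.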
